A study of Mus musculus with 6 samples.

Results

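The genes described here are the subunits of the transcription factor NF-κB and the proteins that hold it back or shape its output. They were chosen by name, as the rows of the deposited count table whose symbol is *Nfkb1*, *Nfkb2*, *Rel*, *Rela* or *Relb* (the subunits) or *Nfkbia*, *Nfkbib*, *Nfkbie*, *Bcl3* or *Tnfaip3* (the inhibitors), and all 10 were found among 23420 rows. The libraries came from splenic B cells of 3 Ahr+/+ mice and 3 Ahr-/- mice, on the C57Bl/6J background by the labels. The methods list the knockout as B6.129-Ahr tm1Bra/J, a germline null of the aryl hydrocarbon receptor (AhR), so the deletion was not confined to B cells. All 6 cultures received 10 μg/ml of anti-IgM, which crosslinks the B-cell receptor (BCR), together with 20 ng/ml of IL-4 over 8 h, and the AhR ligand FICZ at 250 nM over the final 4 h. No resting, FICZ-free or earlier culture was analysed here, so each value below is a difference between genotypes after activation and not a response to activation. By the general methods of the study the animals were older than 8 weeks, and matched for age and sex unless noted.

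NF-κB binds DNA as dimers of its 5 subunits. In resting B cells the IκB proteins retain these dimers in the cytoplasm, and BCR engagement activates, through PKCβ, the IKK kinase that marks IκB for degradation. Several genes of the system, among them *Nfkbia* and *Tnfaip3*, are themselves NF-κB targets, and this feedback limits the length of the response. The comparison asks how the transcripts of this system differed between activated B cells with and without AhR.

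Total counts lay between 22095096 and 53648787 per library, and each member had between 970 and 50792 counts in each library. *Ahr*, the targeted gene, had 12681, 12892 and 13953 normalized counts in cells with AhR and 8856, 8949 and 9717 in cells without it. Normalized counts are counts divided by the TMM-scaled library size relative to the mean of the 6 libraries. Counts per gene cannot tell reads of the deleted part from those of the rest, so they check this label only in part. *Cyp1a1*, the classical AhR target, had 4973, 5437 and 5327 normalized counts with AhR and 6.87, 2.84 and 6.38 without it. Among the markers of B cells, 4 of 6 were called higher in Ahr-/- cells and none lower, with a summed level of 1810 to 1900 CPM (counts scaled to a common library total) in Ahr+/+ and 2150 to 2240 CPM in Ahr-/- libraries. Of the 8 markers listed for plasmacytoid dendritic cells, 6 were called higher and 1, *Tcf4*, which B cells also express, lower. Their sums were 281 to 303 and 248 to 265 CPM with *Tcf4* and 93 to 107 and 122 to 150 CPM without it, and *Siglech* was at 1.36 to 1.58 CPM with AhR and at 6.14 to 7.81 CPM without it. Of the 7 for conventional dendritic cells, 4 were called higher and 1, *Zbtb46*, lower, with sums of 21.1 to 24.3 and 22.7 to 27.5 CPM, and of 7.13 to 9.20 and 11.7 to 16.1 CPM without *Zbtb46*. Markers of monocytes and macrophages summed to 31 to 38.1 and 15.6 to 27.9 CPM (1 of 7, *Cd14*, higher and 1, *Emr1*, lower), and to 13.9 to 20.9 and 14.7 to 26.3 CPM without *Emr1*. Those of T cells summed to 157 to 167 and 157 to 180 CPM (2 of 7 lower, with *Lck* at 152 to 175 CPM in every library and *Cd3e* at 1.13 CPM or less), those of NK cells to 5.94 to 7.67 and 7.07 to 11.1 CPM (2 of 5 higher), and those of neutrophils to 2.68 to 8.64 and 3.11 to 11.9 CPM (0 of 4 tested called by edgeR, by DESeq2 or at an unadjusted p under 0.05). Markers of erythroid cells summed to at most 0.314 CPM. The 4 listed globin genes had 0 counts in every library, so this sum rests on *Alas2* alone. It is not read as absence of erythroid RNA. Over all 13682 tested genes, 9.79% were called higher and 8.13% lower by edgeR at an adjusted p under 0.05. The part of the marker differences in the results below was not tested. In a bulk library fewer cells of a type and less RNA per cell cannot be told apart.

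The stretch of DNA around the transcription start is shown for 4 members that hold an NF-κB consensus there and differ in what their transcripts did. *Tnfaip3* and *Bcl3* were higher in Ahr-/- cells, *Nfkbia* was lower, and *Rel* was not called different. The windows run from 250 bases before to 50 bases after the start, on the gene's own strand and from 5′ to 3′, as RefSeq gives them on GRCm38.p6. They lie at chr10:19015361-19015660 (*Tnfaip3*), chr7:19822706-19823005 (*Bcl3*), chr12:55492598-55492897 (*Nfkbia*) and chr11:23770920-23771219 (*Rel*), all on the minus strand. Capitals mark the NF-κB consensus on either strand.
Tnfaip3: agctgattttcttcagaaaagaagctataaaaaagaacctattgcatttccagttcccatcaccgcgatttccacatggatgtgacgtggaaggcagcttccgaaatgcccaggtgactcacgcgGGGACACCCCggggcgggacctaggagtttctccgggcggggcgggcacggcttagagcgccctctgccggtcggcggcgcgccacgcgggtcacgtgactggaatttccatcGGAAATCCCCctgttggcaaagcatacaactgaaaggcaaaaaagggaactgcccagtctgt
Bcl3: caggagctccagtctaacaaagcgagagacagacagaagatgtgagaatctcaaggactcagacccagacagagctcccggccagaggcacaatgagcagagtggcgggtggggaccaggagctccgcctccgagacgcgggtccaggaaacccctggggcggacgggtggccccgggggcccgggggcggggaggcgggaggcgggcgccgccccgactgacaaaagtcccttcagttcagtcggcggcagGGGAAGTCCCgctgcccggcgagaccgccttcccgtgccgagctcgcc
Nfkbia: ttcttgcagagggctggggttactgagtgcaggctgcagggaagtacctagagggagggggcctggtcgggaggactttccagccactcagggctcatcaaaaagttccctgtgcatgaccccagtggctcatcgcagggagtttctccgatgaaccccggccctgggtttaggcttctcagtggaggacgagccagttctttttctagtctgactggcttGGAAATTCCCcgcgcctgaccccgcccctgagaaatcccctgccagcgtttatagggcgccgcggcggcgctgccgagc
Rel: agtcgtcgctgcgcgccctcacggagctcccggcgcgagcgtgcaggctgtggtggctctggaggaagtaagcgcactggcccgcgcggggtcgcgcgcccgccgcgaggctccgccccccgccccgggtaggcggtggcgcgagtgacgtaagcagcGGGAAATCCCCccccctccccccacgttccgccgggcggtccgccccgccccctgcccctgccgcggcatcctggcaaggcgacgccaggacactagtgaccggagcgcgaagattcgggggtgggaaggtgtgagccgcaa
In *Tnfaip3* the matches began 125 and 12 bases before the start, in *Nfkbia* 29 bases before it, in *Bcl3* 3 bases after it, and in *Rel* 2 overlapping matches began 92 and 91 bases before it. RefSeq windows were at hand for 8 of the 10 members, with 3 alternative starts for *Nfkb2* and 2 for *Tnfaip3*, and not for *Nfkb1* and *Relb*. The consensus was found in 8 of these 11 windows, which belong to 6 of the 8 members (*Nfkb2*, *Rel*, *Nfkbia*, *Nfkbie*, *Bcl3* and *Tnfaip3*), against 8.46% of the 32851 mouse windows of the same length. Windows 2 and 3 of *Nfkb2* overlap and share 1 match, which is counted in both. The core of the dioxin response element that AhR binds, the letters GCGTG on either strand, was found in 6 of the 11 windows, which belong to 4 of the 8 members (*Nfkb2*, *Rel*, *Nfkbie* and *Tnfaip3*), against 32.4% of all windows. These are matches of letters only. No binding was measured in these libraries.

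Of the 10 members, 5 were higher and 2 lower without AhR by edgeR's quasi-likelihood test, called at an adjusted p under 0.05, and 3 were not called. *Tnfaip3* and *Bcl3* rose the most, followed by *Nfkb1*, *Nfkbie* and *Nfkb2*, while *Nfkbia* and *Rela* fell. The same test called 17.9% of the 13682 genes tested, 9.79% of them higher and 8.13% lower. The members are abundant, and abundant genes are called more often. Among the 5075 genes at least as abundant as *Bcl3*, the least abundant member, 21.3% were called. The genotypes' libraries did not overlap for 7 members, against 33.5% of all genes tested and 38.4% of those at least as abundant as *Bcl3*. The median log2 fold change was 0.10 over the members and 0.00217 over all tested genes. The changes of the members were small, and the 7 called ranged from a fall of 0.21 to a rise of 0.48 on the log2 scale.

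**Figure D1:**
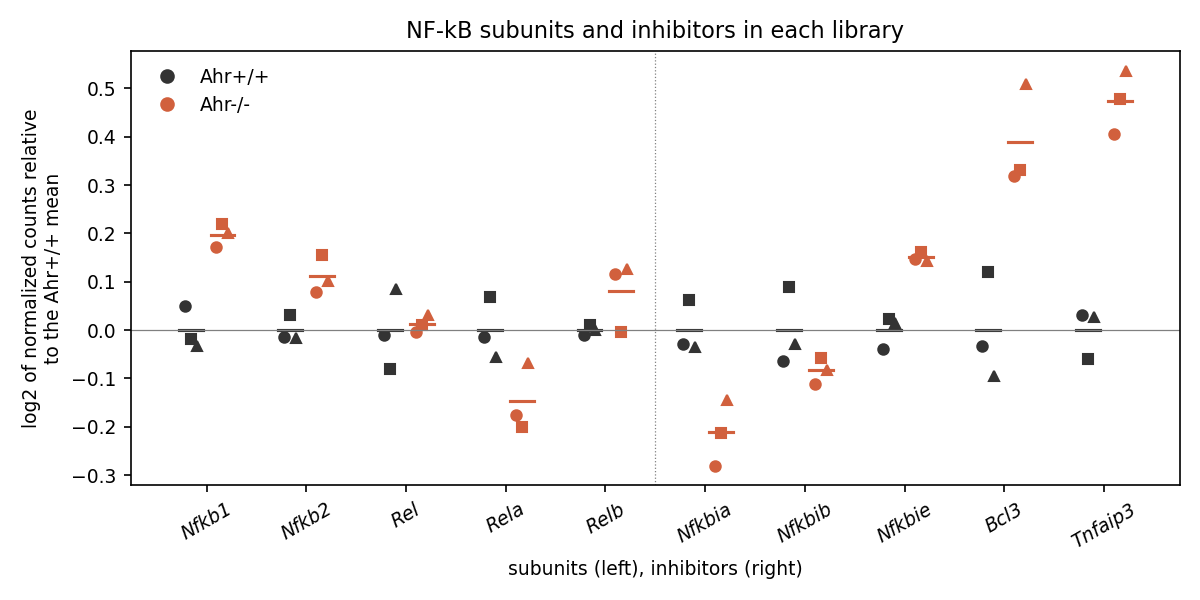
Normalized counts of the 10 members in each library, on a log2 scale relative to the Ahr+/+ mean of that gene. Each point is a library (circle, square and triangle for replicates 1, 2 and 3), short lines are genotype means, and subunits stand left of the dotted line. All Ahr-/- points of Tnfaip3, Bcl3, Nfkb1, Nfkbie and Nfkb2 lie above the Ahr+/+ points of the same gene, and all those of Nfkbia and Rela lie below them.

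**Figure D2:**
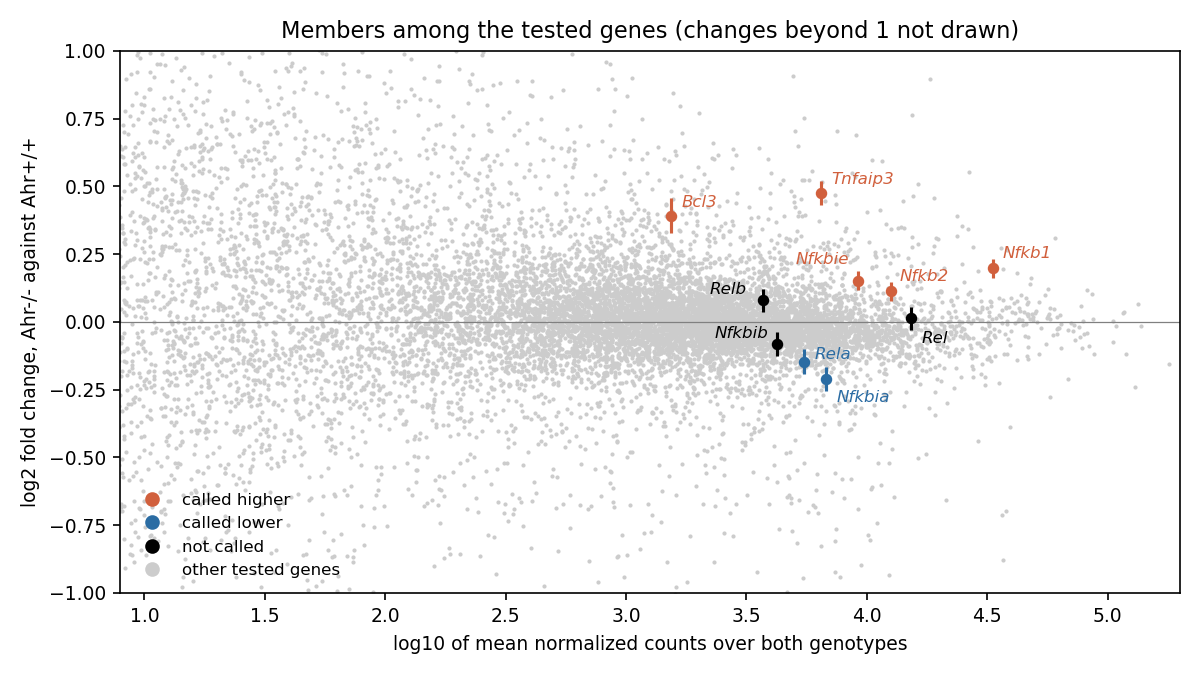
Log2 fold change of each tested gene, Ahr-/- against Ahr+/+, by its mean normalized count on a log10 axis, with the members drawn in colour by call and with standard errors. The rarest genes and the largest changes lie outside the frame. Tnfaip3 and Bcl3 stand highest among the members at 0.48 and 0.39, and Nfkbia lowest at -0.21.

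Among the subunits, *Nfkb1* and *Nfkb2* were higher, *Rela* was lower and *Rel* and *Relb* were not called. *Nfkb1* encodes p105, the precursor of the p50 subunit, which itself acts as an IκB before it is processed. It lies on chromosome 3 of GRCm38 from 135584655 to 135691547 on the minus strand, where it overlaps *Gm43430* on the same strand. *Nfkb1* had 32114, 30653 and 30311 normalized counts in cells with AhR and 34935, 36107 and 35662 in cells without it. The lowest Ahr-/- library was above the highest Ahr+/+ library. The mean rose by 14.6%, from 31026 ± 957 to 35568 ± 591 (SD, n = 3 mice each), a log2 fold change of 0.20 (standard error 0.034, edgeR adjusted p = 0.0014).

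*Nfkb2* encodes p100, the precursor of p52 and the inhibitor of RelB dimers in the alternative pathway. The gene lies on chromosome 19 from 46304320 to 46312385 on the plus strand, and overlaps *AC114539.1* and *Psd* on the opposite strand. *Nfkb2* stood at 11975, 12355 and 11960 normalized counts with AhR and at 12781, 13465 and 12988 without it. The ranges did not overlap, although the gap between them was small. The log2 fold change was 0.11 (standard error 0.035, edgeR adjusted p = 0.045). The call was lost in 6 of 14 other settings, 4 of which left out 1 library: adjusted p was 0.14 without Ahr+/+ replicate 1, 0.16 without Ahr+/+ replicate 3, 0.21 without Ahr-/- replicate 2 and 0.054 without Ahr-/- replicate 3.

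*Rela* encodes p65, the transactivating partner of p50 in the classical dimer, and lies on the same chromosome as *Nfkb2*, from 5637483 to 5648130 on the plus strand. It had 5720, 6052 and 5554 normalized counts in Ahr+/+ and 5113, 5023 and 5512 in Ahr-/- libraries. The highest Ahr-/- library, replicate 3, came close to the lowest Ahr+/+ library but did not reach it. The mean was 5775 ± 254 with AhR and 5216 ± 260 without it (SD, n = 3 mice each), and the transcript fell by 0.15 on the log2 scale (standard error 0.047, edgeR adjusted p = 0.049). This call was the least stable among the members and was lost in 9 of 14 other settings. Leaving out 1 library raised the adjusted p to 0.091 (Ahr+/+ replicate 1), 0.15 (Ahr+/+ replicate 2), 0.056 (Ahr+/+ replicate 3), 0.12 (Ahr-/- replicate 1) and 0.19 (Ahr-/- replicate 2), and lowered it to 0.0083 without Ahr-/- replicate 3.

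*Rel*, whose product c-Rel is the subunit most tied to lymphocyte proliferation and survival, lies on chromosome 11 from 23736847 to 23770970 on the minus strand. It had 15062, 14348 and 16104 normalized counts with AhR and 15120, 15275 and 15510 without it. All 3 Ahr-/- values lay inside the Ahr+/+ range. The log2 fold change was 0.01, with a 95% interval from -0.08 to 0.10 (edgeR adjusted p = 0.88). *Relb*, the partner of p52 on chromosome 7 from 19606217 to 19629438 on the minus strand, had 3587, 3639 and 3616 normalized counts in Ahr+/+ and 3917, 3602 and 3946 in Ahr-/- libraries. Ahr-/- replicate 2 fell inside the Ahr+/+ range and the other two lay above it. The log2 fold change of *Relb* was 0.08, with a 95% interval from -0.01 to 0.17 (edgeR adjusted p = 0.25).

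Among the inhibitors, *Tnfaip3*, *Bcl3* and *Nfkbie* were higher, *Nfkbia* was lower and *Nfkbib* was not called. *Tnfaip3* encodes A20, a ubiquitin-editing enzyme that shuts off signalling to IKK, and lies on chromosome 10 from 19000910 to 19015657 on the minus strand. It had 5520, 5180 and 5505 normalized counts in cells with AhR and 7155, 7530 and 7839 in cells without it. The genotypes were far apart relative to their spread. The mean rose by 39.0%, from 5402 ± 192 to 7508 ± 342 (SD, n = 3 mice each), a log2 fold change of 0.48 with a 95% interval from 0.38 to 0.57 (edgeR adjusted p = 7.8e-06). Across 14 other settings the value stayed between 0.44 and 0.51.

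*Bcl3* encodes an atypical nuclear IκB that binds p50 and p52 homodimers on DNA and can activate as well as repress. It lies on chromosome 7 from 19808462 to 19822770 on the minus strand, 179 kb from *Relb*, and overlaps *Gm16175* and *Gm16174* on the opposite strand. *Bcl3* was the least abundant member, with 1305, 1451 and 1250 normalized counts with AhR and 1665, 1680 and 1901 without it. Every Ahr-/- library exceeded every Ahr+/+ library. The mean rose by 31.0%, from 1335 ± 104 to 1749 ± 132 (SD, n = 3 mice each), and the log2 fold change was 0.39 (standard error 0.065, edgeR adjusted p = 9.7e-04).

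*Nfkbia* encodes IκBα, the inhibitor that is degraded and resynthesised fastest. It lies on chromosome 12 from 55489410 to 55492647 on the minus strand, 20 Mb from *Ahr* on the same chromosome. *Nfkbia* had 7143, 7609 and 7115 normalized counts in Ahr+/+ and 6002, 6293 and 6591 in Ahr-/- libraries. The groups did not overlap. The mean fell by 13.6%, from 7289 ± 278 to 6295 ± 295 (SD, n = 3 mice each), and the log2 value fell by 0.21 (standard error 0.044, edgeR adjusted p = 0.0052). *Nfkbie*, which encodes IκBε, lies on chromosome 17 from 45555703 to 45563169 on the plus strand. It went the other way, with 8501, 8877 and 8816 normalized counts with AhR and 9663, 9770 and 9648 without it. The Ahr-/- libraries lay close together and above all Ahr+/+ libraries. The log2 fold change was 0.15 (standard error 0.035, edgeR adjusted p = 0.0090). *Nfkbib*, which encodes IκBβ, lies on chromosome 7 from 28758251 to 28767512 on the minus strand and overlaps *Ccer2* and *Sirt2* on the opposite strand. It had 4163, 4630 and 4271 normalized counts in Ahr+/+ and 4033, 4186 and 4115 in Ahr-/- libraries. Ahr-/- replicate 2 lay above the lowest Ahr+/+ library. The log2 fold change was -0.08, with a 95% interval from -0.18 to 0.02 (edgeR adjusted p = 0.25).

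For each of the 7 members without overlap, the two-sided exact permutation test of the normalized counts gave p = 0.1, the smallest that 3 mice against 3 allow. For *Rel*, *Relb* and *Nfkbib* the exact permutation p was 0.8, 0.3 and 0.2. Whether the strand of the reads was used in counting is not given in the sources used here, so the counts of *Nfkb2*, *Nfkbib* and *Bcl3* are uncertain to the extent of their antisense neighbours.

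To compare members with each other, counts were divided by transcript length. In CPM per kb of annotated exon, *Nfkbia* had the highest level in Ahr+/+ cells at 118 ± 4.5, followed by *Nfkbie* at 74.6 ± 1.7, *Nfkb2* at 68.7 ± 1.3, *Nfkb1* at 66.9 ± 2.1, *Rel* at 52.9 ± 3.1, *Nfkbib* at 52.2 ± 2.9, *Rela* at 48.9 ± 2.1, *Relb* at 24.2 ± 0.18, *Tnfaip3* at 19.5 ± 0.69 and *Bcl3* at 14.0 ± 1.1 (SD, n = 3 mice). In this order *Nfkb2* and *Nfkb1* did not differ beyond their spread, nor did *Rel*, *Nfkbib* and *Rela* from their neighbours within this run. In Ahr-/- cells *Nfkb1*, at 76.7 ± 1.3, stood above *Nfkb2*, at 74.2 ± 2.0, and *Tnfaip3*, at 27.0 ± 1.2, stood above *Relb*, at 25.6 ± 1.3. The members of each of these pairs overlapped in range. The order depends on the length used. Per kb of coding sequence *Nfkb1* led at 277 ± 8.6 in Ahr+/+ cells, with *Rel* at 224 ± 13 next and *Nfkbia* behind *Nfkbie* at 201 ± 7.7, and *Bcl3* remained last at 25.9 ± 2.0.

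**Figure D3:**
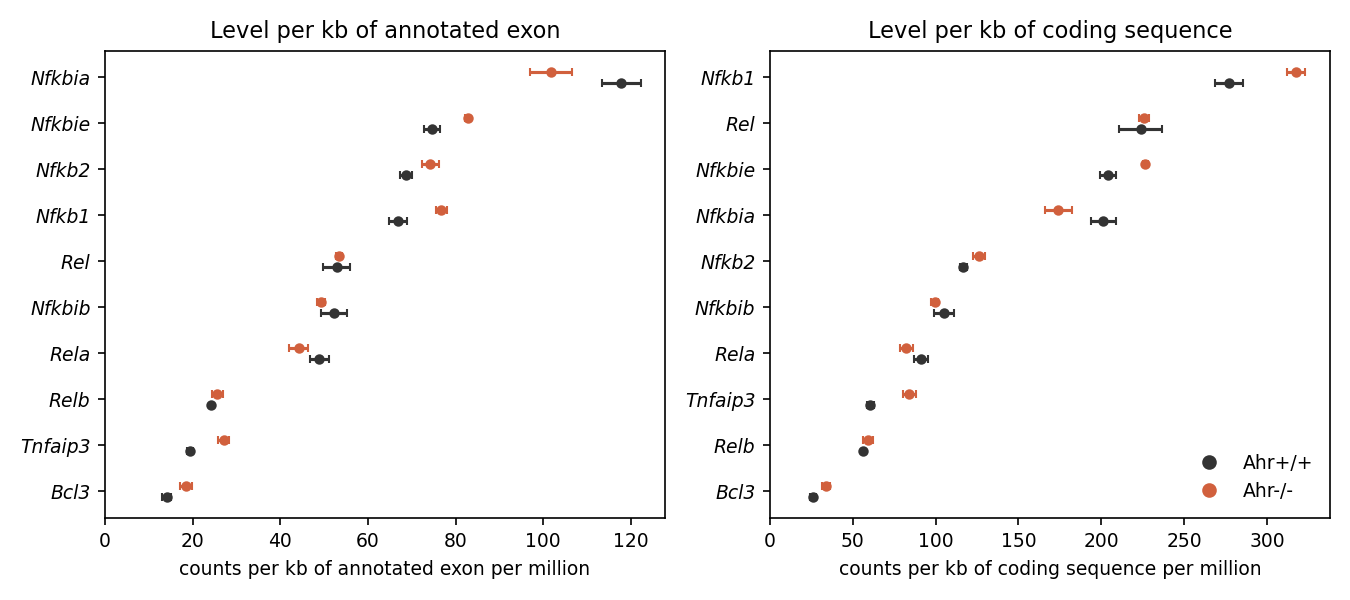
Level of each member per kb of annotated exon (left) and per kb of coding sequence (right), in CPM per kb, as mean and SD of 3 mice per genotype on linear axes from 0. Nfkbia leads on the left and Nfkb1 on the right, while Bcl3 is lowest on both.

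As shares of the summed subunit level per kb of exon, *Nfkb1* made up 26.4%, 25.3% and 25.1% with AhR and 27.9%, 28.4% and 27.7% without it. *Rela* made up 18.5%, 19.6% and 18.1% with AhR and 16.0%, 15.5% and 16.8% without it. Neither set of shares overlapped between genotypes, with either length. The shares of *Nfkb2*, *Rel* and *Relb* per kb of exon overlapped, at means of 26.3%, 20.2% and 9.25% with AhR and 27.1%, 19.5% and 9.34% without it. With coding length the shares of *Rel* did not overlap, at means of 29.3% with AhR and 27.8% without it. Per kb of exon, the summed inhibitors stood to the summed subunits at 1.04, 1.10 and 1.05 in Ahr+/+ libraries and at 1.00, 1.02 and 1.03 in Ahr-/- libraries. With coding length these ratios overlapped, at 0.757, 0.813 and 0.771 in Ahr+/+ and 0.752, 0.763 and 0.769 in Ahr-/- libraries. The inhibitor total hid opposite moves, since *Nfkbia* was lower and *Nfkbie* and *Tnfaip3* were higher. These shares and ratios describe transcripts, not protein, and were not put to a test.

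Ratios of raw counts of 2 members within a library do not depend on how libraries are scaled. Of the 45 pairs of members, 31 had ratios that did not overlap between genotypes, against 43.7% of all pairs of genes at least as abundant as *Bcl3*. The pairs share members and are not independent, and *Nfkbia* and *Tnfaip3* were each in 8 such pairs of 9. The following pairs were singled out after their values were seen and were not tested. There were 1.29, 1.47 and 1.29 *Nfkbia* counts per *Tnfaip3* count with AhR and 0.839, 0.836 and 0.841 without it. The ratio was lower in every library without AhR. Raw counts are not corrected for length, and per kb of exon the level of *Nfkbia* stayed above that of *Tnfaip3* in every library. *Nfkbia* counts per *Nfkbie* count were 0.840, 0.857 and 0.807 with AhR and 0.621, 0.644 and 0.683 without it. *Nfkb1* counts per *Rela* count were 5.61, 5.07 and 5.46 with AhR and 6.83, 7.19 and 6.47 without it. *Bcl3* and *Tnfaip3*, which rose together, kept a ratio whose values overlapped, with a mean of 0.248 in Ahr+/+ and 0.233 in Ahr-/- libraries.

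**Figure D4:**
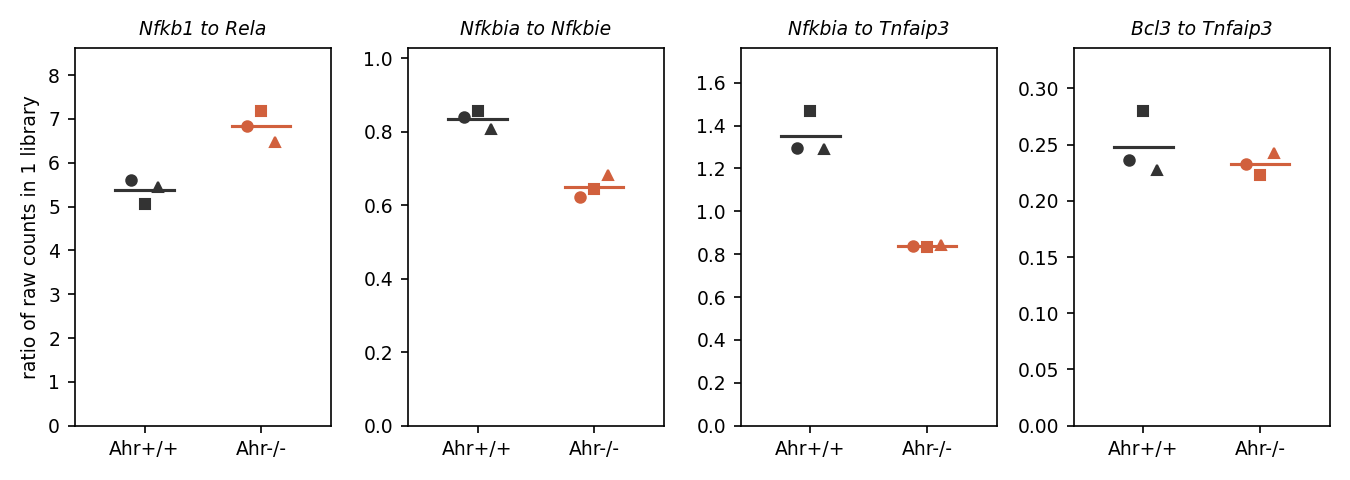
Ratio of raw counts of 4 pairs of members in each library, with the genotype mean as a line and a linear axis from 0 in each panel. Nfkb1 to Rela rises by 27.0% between the means, Nfkbia to Nfkbie and Nfkbia to Tnfaip3 are lower in every Ahr-/- library, and Bcl3 to Tnfaip3 overlaps.

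Beyond the members, lists of the pathway held 78 further genes, of which 26 were higher, 19 lower and 33 not called, with a median log2 fold change of 0.02. For this and the following lists, the share over all 13682 tested genes was 17.9% called, 9.79% higher and 8.13% lower. Both other nuclear IκB proteins were lower, in contrast to *Bcl3*. *Nfkbiz*, which encodes IκBζ, had 2853, 2687 and 2909 normalized counts in Ahr+/+ and 2042, 2166 and 2334 in Ahr-/- libraries. It fell by 0.36 on the log2 scale (standard error 0.051, edgeR adjusted p = 2.6e-04). *Nfkbid*, which encodes IκBNS, fell by 0.20 (edgeR adjusted p = 0.0051).

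Of 14 genes that carry the signal from the BCR to IKK, 2 were higher, 4 lower and 8 not called, with a median of -0.03. *Prkcb*, which encodes PKCβ, had 9687, 9939 and 10016 normalized counts with AhR and 5978, 6283 and 6587 without it, and fell by 0.65 on the log2 scale (edgeR adjusted p = 2.9e-07). *Plcg2*, the phospholipase that feeds PKCβ, fell by 0.38 (edgeR adjusted p = 4.3e-05). None of the 8 IKK kinase and LUBAC genes was called by edgeR, with 1 at an unadjusted p under 0.05, and 0 were called by DESeq2. LUBAC is the linear ubiquitin ligase that recruits IKK, and the lowest adjusted p of this list, that of *Ikbke*, was 0.14 by edgeR at a log2 fold change of 0.20.

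In the alternative pathway, which processes the p100 product of *Nfkb2*, 3 of 8 genes were higher, 2 lower and 3 not called. *Tnfrsf13c*, the BAFF receptor, had 25691, 27630 and 24750 normalized counts in Ahr+/+ and 15236, 15693 and 18526 in Ahr-/- libraries and fell by 0.66 on the log2 scale (edgeR adjusted p = 1.5e-05). *Cd40*, the other main receptor of this pathway in B cells, rose by 0.23 and *Map3k14*, the kinase NIK, by 0.18. Of the adaptors that keep NIK low, *Traf2* rose by 0.15 and *Traf3* fell by 0.12 (edgeR adjusted p between 0.010 and 0.046 for these 4 genes).

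Beside *Tnfaip3*, 16 further genes of negative regulation and IκB turnover were listed, of which 4 were higher, 6 lower and 6 not called. The list holds *Btrc* and *Fbxw11*, the β-TrCP genes, whose ligase degrades phosphorylated IκB and so promotes NF-κB activation. *Fbxw11* was not called, with means of 4374 and 4287 normalized counts and a log2 fold change of -0.03 (edgeR adjusted p = 0.67). *Btrc* had 1912, 1925 and 1904 normalized counts with AhR and 1085, 991 and 1045 without it. It fell by 0.89 on the log2 scale (edgeR adjusted p = 3.5e-08). *Tank* rose by 0.39 and *Pdlim2*, a ligase that directs nuclear p65 to degradation, by 0.28, while *Otulin*, the linear-ubiquitin deubiquitinase listed as *Fam105b*, fell by 0.24 (edgeR adjusted p at most 0.0017 for the 3 genes). *Prkcb*, *Plcg2*, *Ikbke*, *Traf2*, *Traf3*, *Btrc*, *Otulin* and, among the targets below, *Bcl2a1d* overlap annotated genes on the opposite strand, so the limit on strand named for the members holds for them too. *Tnip3*, a partner of A20, rose by 1.13 at low counts, from 16.5, 53.3 and 47.2 to 85.8, 109 and 57.4 normalized counts (edgeR adjusted p = 0.038).

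Of 30 genes known as NF-κB targets, 17 were higher, 5 lower and 8 not called, with a median log2 fold change of 0.30. Over all tested genes 9.79% were called higher and 8.13% lower. Of those at least as abundant as *Bcl3*, 21.3% were called in either direction. The list was chosen with results of these data known and holds targets with other regulators as well. Among the higher genes, *Ccl22*, a chemokine, rose by 1.21 on the log2 scale with 787, 848 and 802 normalized counts in Ahr+/+ and 2104, 2192 and 1354 in Ahr-/- libraries (edgeR adjusted p = 6.0e-05). *Bcl2a1d*, which encodes an anti-apoptotic A1 protein, rose by 0.78 (edgeR adjusted p = 1.1e-06) and its paralog *Bcl2a1a* by 1.24 at 6.17 and 14.7 mean normalized counts (edgeR adjusted p = 0.044). The A1 paralogs are nearly identical, so the split of reads among them is uncertain. Among the lower genes, *Fas*, the death receptor, fell by 1.25 on the log2 scale, from 375, 374 and 391 normalized counts to 154, 166 and 156 (edgeR adjusted p = 6.0e-07). *Ier3* fell by 1.15 at 44.0 and 18.5 mean normalized counts (edgeR adjusted p = 0.017).

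**Figure D5:**
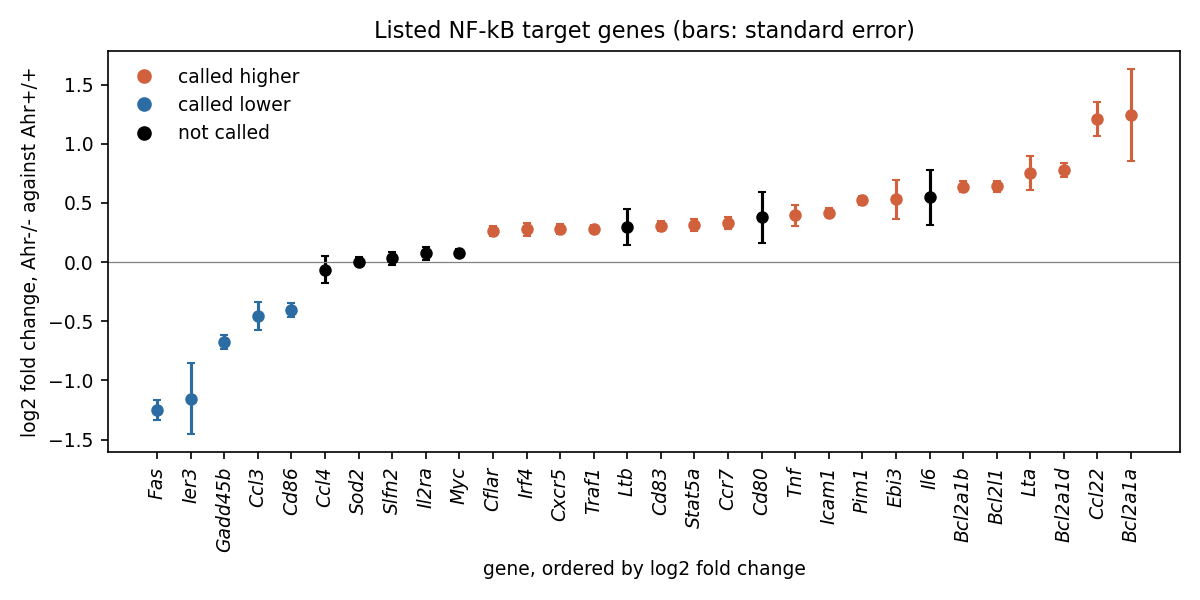
Log2 fold change, Ahr-/- against Ahr+/+, of the 30 listed NF-κB target genes with standard errors, ordered by value and coloured by call. The genes called higher lie between 0.27 and 1.24, and Fas and Ier3 lie lowest at -1.25 and -1.15.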

How the data were processed

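Polyadenylated RNA of 6 B-cell cultures was sequenced from stranded libraries. The authors deposited counts of reads per gene and library without normalization. The submitters' processing notes name TopHat2, HTSeq, DESeq and mm10. The strand setting of the counting was not given in the sources used here. A deposited table of normalized counts and a table of the authors' own comparison (fold changes and p-values) were not used.

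Counts were tested with edgeR 4.0.16 in R 4.3.3 (quasi-likelihood test, TMM, prior count of 0.125, genotype as the only term) over the 13682 genes with at least 10 counts in total, with Benjamini-Hochberg adjustment over all of them and calls at an adjusted p under 0.05. The common coefficient of variation was 0.0476. Standard errors were derived from the test, as the absolute log2 fold change divided by the square root of its F statistic. The 95% intervals used these standard errors and the t distribution with 12.05 degrees of freedom. The fit was tested on simulated data. Same-genotype libraries differed by 3.59 to 8.32 in chi-square per degree of freedom and libraries of different genotype by 21.7 to 40, so each library counted once. Gene lengths and positions came from GENCODE M21 (GRCm38). Promoter windows came from RefSeq.

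The members and gene lists were chosen with earlier results of these data known. Named genes were the members, *Ahr* and *Cyp1a1*, and up to 5 called genes from each other list, taken by size of log2 fold change among those averaging 10 or more normalized counts in the genotype where they were higher. Some genes that met this rule are not reported here. *Ikbke*, *Fbxw11* and the markers were named outside this rule, after their values were seen. Alternatives were other scalings (DESeq2 1.42.0 size factors, library size alone), other filters, the DESeq2 Wald test, a prior count of 2, a threshold of 0.01, the replicate number as a block, coding length, and each library left out in turn.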

Additional observations from a re-analysis of the deposited data

How the results depend on the processing

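*Tnfaip3*, *Bcl3*, *Nfkb1*, *Nfkbie* and *Nfkbia* kept their direction and their edgeR or DESeq2 call in all 14 alternatives, while the calls of *Nfkb2* and *Rela* were lost in 6 and 9 of them. The number of members lower in Ahr-/- cells was 1 in place of 2 by library size alone, with at least 10 counts in at least 3 libraries, with the replicate block and at an adjusted p under 0.01, and it was 1 to 2 with each library left out in turn. The number of members higher was 5, and it was 4 with DESeq2 size factors and at an adjusted p under 0.01, and 4 to 5 with each library left out. *Rel*, not called in any alternative, reversed to a log2 fold change of -0.027 without Ahr+/+ replicate 2 and ranged from -0.027 to 0.056 with each library left out. *Relb* and *Nfkbib* were not called in any alternative either. With each library left out, *Relb* ranged from 0.050 to 0.12 and *Nfkbib* from -0.11 to -0.036. Over all genes 2453 calls became 1473 at an adjusted p under 0.01, and 1664 to 2601 with each library left out. The NF-κB target genes lower were 5, and 3 at an adjusted p under 0.01, and 3 to 5 with each library left out (3 without Ahr+/+ replicate 2). The inhibitor to subunit ratio with coding length was 0.78 in Ahr+/+ and 0.76 in Ahr-/- cells, in place of 1.06 and 1.02, since the lengths differ by gene. The median log2 fold change of all genes was 0.00217 in the reported fit and 0.027 by library size alone. Deviations of same-numbered libraries correlated at -0.0299, 0.12 and -0.0448. The labels do not say whether same-numbered mice were paired, and 3 libraries per genotype cannot decide it. With the replicate block 5 members were higher and 1 lower, and the adjusted p of *Rela* was 0.073. The cause of these shifts was not tested. With 3 mice per genotype and 1 time point, the intervals given for *Rel*, *Relb* and *Nfkbib* hold the differences that these data cannot distinguish.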
